A study of Homo sapiens with 5 samples.

Results

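The zinc finger gene clusters of chromosome 19 are 5 stretches of that chromosome in which genes for C2H2 zinc finger proteins stand side by side. They were taken here by position on the hg19 build: cluster A at chr19:19800001-24400000 on the short arm, and on the long arm cluster B at chr19:36500001-38300000, cluster C at chr19:44300001-45000000, cluster D at chr19:52300001-54000000 and cluster E at chr19:57000001-59000000. A ZBTB7A peak belonged to a cluster when its summit lay inside these bounds. The clusters held 274 of the 1261 peaks that the DHT list has on chromosome 19, 680 of 2982 in the FBS list and 270 of 1386 in the CSS list, or 1224 peaks of the 196770 in the 3 lists together.

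ZBTB7A, a transcription factor with a BTB domain and zinc fingers of its own, was mapped by chromatin immunoprecipitation and sequencing in VCaP, an established prostate cancer cell line that expresses the androgen receptor. DHT stands for cells given 10 nM of the androgen dihydrotestosterone over 4 hours, in a medium containing 5% hormone-depleted serum (2 libraries), FBS for cells in 10% full serum (1 library), and CSS for cells given vehicle for 4 hours in the hormone-depleted medium (2 libraries). The labels attach the treatment text of the other groups to FBS as well, and FBS was read as free of added DHT on the strength of the culture condition it names and of the series' design text. There was 1 peak list per condition, which leaves no replicate spread to measure. No p-value is given, and all intervals, which are 95% intervals, cover counting error only. The lists give no read totals, so depth is unknown; the FBS list (124868 peaks) is longer than the DHT (34120) and CSS (37782) lists, and lists were therefore compared by the share of peaks that falls in a cluster and not by raw counts.

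KRAB zinc finger proteins are among the largest families of human transcription factors. Their KRAB domain recruits the corepressor TRIM28 and leads to repressive histone marks, often over transposable elements, and their genes spread by repeated local duplication, so that neighbours in a cluster resemble each other in sequence. In the RefSeq gene table (assembly GRCh38.p14), 246 of 509 protein-coding genes named ZNF and a number lie on chromosome 19 (48.3%), and they make up 17.5% of the 1403 named protein-coding genes there. They form 14 runs of at least 5 direct neighbours, among them ZNF101 to ZNF681 with 35 genes, ZNF566 to ZNF571 with 22, ZNF283 to ZNF180 with 20 and ZNF766 to ZNF888 with 16. These names are background: the table is on another build, coordinates were not converted, and the bounds of the clusters were not checked against gene positions. No peak is assigned to a gene here, and no sequence is shown. ZBTB7A itself is a chromosome 19 gene, between PIAS4 and MAP2K2 in the same table, outside these runs.

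With every listed peak counted, the clusters together were bound at about the density of the rest of the chromosome in CSS and somewhat more densely in DHT and FBS. DHT peaks stood at 25.4 per Mb in the 10.8 Mb of clusters and 21.9 per Mb in the 45.1 Mb of the rest, a ratio of 1.16 (1.01 to 1.33). FBS peaks stood at 63.0 per Mb in the clusters and 51.0 per Mb in the rest, a ratio of 1.23 (1.13 to 1.35). CSS peaks stood at 25.0 per Mb in the clusters and 24.7 per Mb in the rest, a ratio of 1.01 (0.882 to 1.16). These ratios depended on which peaks were counted and on the yardstick. At a −log10 q of at least 5 the CSS ratio was 1.52 (1.27 to 1.82), and at 10 or more the ratios were 2.03 in DHT (1.33 to 3.07), 1.90 in FBS (1.39 to 2.59) and 2.33 in CSS (1.66 to 3.23). The DHT interval included 1 against the rest of the long arm (1.09, 0.944 to 1.27), with bounds narrowed by 100 kb (1.15, 0.999 to 1.33) and without 2 short blocks of cluster B described further on (1.09, 0.949 to 1.25). The FBS ratio was 2.51 (2.07 to 3.03) at a fold enrichment of at least 5 and 1.10 against the rest of the long arm. Without cluster A the FBS ratio was 1.78 (1.62 to 1.95) and the CSS ratio 1.21 (1.03 to 1.41). The share of a list's chromosome 19 peaks that lay in the clusters was 21.7% in DHT (19.5 to 24.1), 22.8% in FBS (21.3 to 24.35) and 19.5% in CSS (17.4 to 21.7).

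These sums hid 2 opposite patterns. Cluster A had few FBS peaks, 118 in 4.6 Mb or 25.7 per Mb (21.2 to 30.7), which is 0.503 times the density of the rest of the chromosome (0.414 to 0.605). The 4 long-arm clusters were dense in FBS peaks, at 90.6 per Mb in cluster B (163 peaks in 1.8 Mb), 100 in cluster C (70 in 0.7 Mb), 93.5 in cluster D (159 in 1.7 Mb) and 85.0 in cluster E (170 in 2 Mb). Each of these was 1.67 to 1.96 times as dense as the rest of the chromosome, and the lowest of the 4 intervals began at 1.42. DHT and CSS peaks varied less between clusters, from 15.7 per Mb in cluster C to 32.5 in cluster E for DHT (11 and 65 peaks) and from 17.1 in cluster C to 38.33 in cluster B for CSS (12 and 69 peaks). In cluster A, DHT had 96 peaks or 20.9 per Mb and CSS had 85 or 18.5 per Mb, so that all 3 lists lay between 18.5 and 25.7 per Mb there although the FBS list is the longest. CSS peaks were thus also sparser in cluster A than in the rest of the chromosome, at 0.747 times its density (0.592 to 0.932). For DHT the ratio was 0.954 (0.766 to 1.18).

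**Figure D1:**
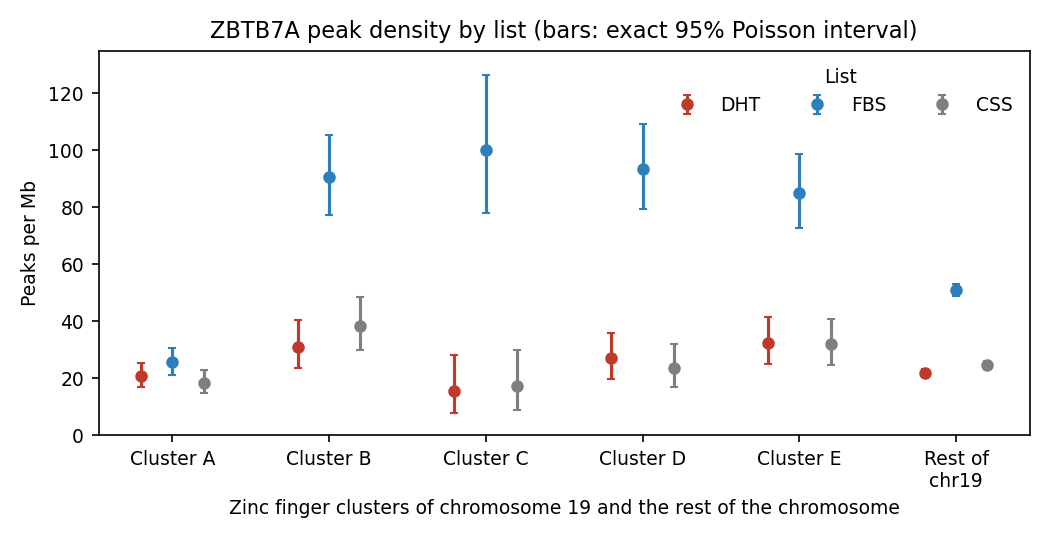
Peaks per Mb (vertical axis) in each zinc finger cluster and in the rest of chromosome 19, for DHT, FBS and CSS, with points for the density and bars for the exact 95% Poisson interval. FBS stands at 25.7 per Mb in cluster A and between 85.0 and 100 in clusters B to E, against 51.0 in the rest of the chromosome.

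Because the lists differ in length, the number of peaks in one list over that in another was set against the same ratio in the rest of the chromosome, as an odds ratio with an exact interval. In cluster A the FBS over CSS odds ratio was 0.673 (0.50 to 0.909) and the FBS over DHT odds ratio was 0.527 (0.395 to 0.705). In cluster C they were 2.83 (1.51 to 5.76) and 2.73 (1.43 to 5.74), and in cluster D 1.93 (1.34 to 2.82) and 1.48 (1.05 to 2.12). Of the 15 odds ratios of single clusters, 6 had an interval that excluded 1, with no adjustment for their number: both of cluster A below 1, and those of clusters C and D above it. For DHT over CSS none of the 5 intervals excluded 1, and the odds ratio of all clusters together was 1.15 (0.946 to 1.39). Cluster A against the 4 long-arm clusters gave 0.457 for FBS over CSS (0.326 to 0.642) and 0.390 for FBS over DHT (0.280 to 0.543).

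The low FBS count of cluster A depended on the yardstick. Against the rest of the short arm alone, where FBS peaks are also sparser, the FBS over CSS odds ratio was 0.754 (0.552 to 1.03), an interval that includes 1, and the FBS over DHT odds ratio was 0.576 (0.425 to 0.783). With peaks of fold enrichment of at least 5 in every list, the odds ratios were 0.986 for FBS over CSS (0.610 to 1.56) and 0.853 for FBS over DHT (0.531 to 1.34). With peaks of −log10 q of at least 5 they were 0.270 (0.164 to 0.436) and 0.202 (0.124 to 0.320). What such a cutoff keeps in each list depends on depth, which is unknown. The fold and the q of an FBS peak ranked it differently on this chromosome, as described further on.

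**Figure D2:**
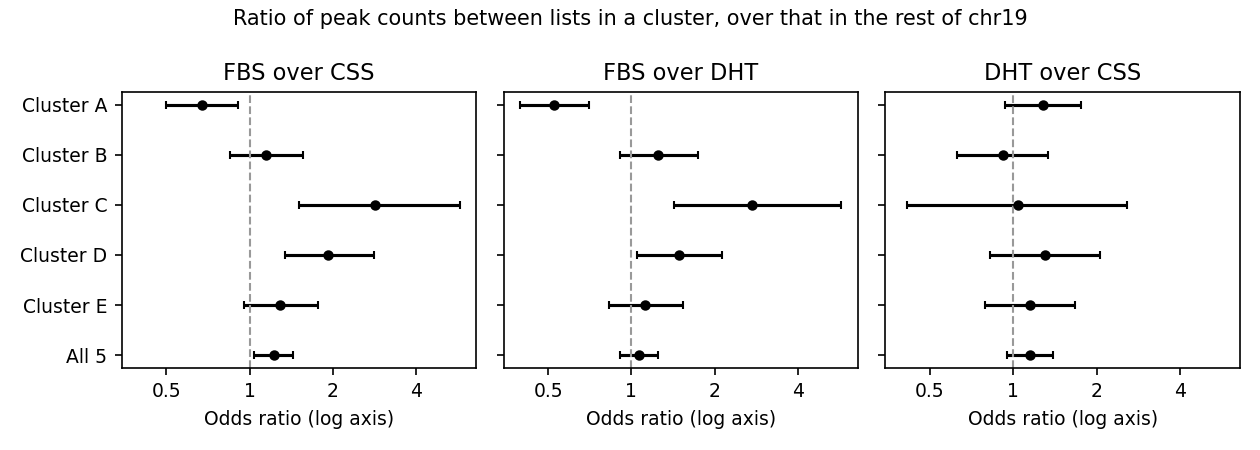
Odds ratio (log axis) of the peak counts of 2 lists in a cluster over the same ratio in the rest of chromosome 19, with exact 95% intervals, for FBS over CSS, FBS over DHT and DHT over CSS. For FBS over CSS, cluster A stands at 0.673 and clusters C and D at 2.83 and 1.93; every DHT over CSS interval spans 1.

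Cluster A also had the highest shares of strong DHT and CSS peaks among the 5 clusters. A percentile by −log10 q gives the place of a peak within its own list, from 0 for the weakest to 100 for the strongest. The authors' fold enrichment and q are used within a list, except where the same cutoff is set on every list. The median peak of cluster A stood at percentile 67.0 in DHT (56.8 to 75.3), 36.0 in FBS (25.7 to 45.4) and 72.9 in CSS (62.6 to 85.0), against 40.9 in DHT, 50.4 in FBS and 41.7 in CSS over the rest of the chromosome. Those at −log10 q 10 or higher, called strong here, were 20 of 96 DHT peaks (20.8%, 13.2 to 30.3), 6 of 118 FBS peaks (5.08%, 1.89 to 10.7) and 32 of 85 CSS peaks (37.6%, 27.4 to 48.8) of cluster A. In the rest of the chromosome strong peaks made up 7.50% in DHT, 5.91% in FBS and 9.50% in CSS, and over the whole lists 11.8% in DHT, 4.92% in FBS and 14.5% in CSS. The DHT and CSS shares of cluster A thus lay above both, with intervals that exclude those values, and the FBS share lay beside them. In clusters B and D, strong CSS peaks exceeded the rest of the chromosome but not clearly the whole list. They were 14 of 69 in cluster B (20.3%, 10.8 points above the rest, 2.77 to 21.8). In cluster D they were 8 of 40 (10.5 points above the rest, 0.821 to 25.3). Intervals of both shares included the 14.5% of the whole CSS list (11.6 to 31.7 in cluster B, 9.05 to 35.6 in cluster D). Most of the strong CSS peaks of cluster B lay in 2 low-fold blocks described further on. The second of these blocks held 15 CSS peaks with a median −log10 q of 11.5. Without the blocks, the 37 CSS peaks left in cluster B stood at a median percentile of 35.1, under the 41.7 of the rest of the chromosome. Their strong share was not recomputed, so the excess of cluster B over the rest of the chromosome holds only with the blocks counted. Among all cluster peaks the strong share was 13.1% in DHT, 9.12% in FBS and 21.9% in CSS.

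Most cluster A peaks of either hormone-depleted list had a partner in the other one, and, counted separately, most had none in FBS. A partner is a peak of another list that overlaps by at least 1 bp. Both held together for 46 of 96 DHT peaks (47.9%, with 29.2% over the whole DHT list) and 40 of 85 CSS peaks (47.1%, with 25.6% over the whole CSS list), against 23.7% of DHT and 22.0% of CSS peaks in the rest of the chromosome. A CSS partner was found for 70 of 96 DHT peaks (72.9%, with 63.9% over the whole DHT list), and a DHT partner for 61 of 85 CSS peaks (71.8%, with 56.8% over the whole CSS list), 18.4 points (8.28 to 26.9) and 23.4 points (12.6 to 32.3) above the rest of the chromosome. An FBS partner was found for 29 of 96 DHT peaks (30.2%, with 48.2% over the whole list) and 26 of 85 CSS peaks (30.6%, with 44.1% over the whole list). The DHT share lay 17.6 points under that of the rest of the chromosome (difference -17.6, -26.5 to -7.33), while the interval for CSS included 0 (difference -10.6, -19.9 to 0.209). Seen from the longer list, 28 of the 118 FBS peaks of cluster A (23.7%) had a DHT partner and 28 of 118 a CSS partner, against 13.3% and 13.5% over the whole FBS list. These shares differed from the rest of the chromosome by 3.01 points (-3.97 to 11.6) for DHT and 3.70 points (-3.27 to 12.3) for CSS, with intervals that include 0. Over the 680 FBS peaks of all clusters the differences had the other sign, at -3.66 points for DHT partners (116 peaks, 17.1%, interval -6.80 to -0.250) and -4.29 points for CSS partners (107 peaks, 15.7%, interval -7.34 to -0.961).

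After overlapping peaks of the 3 lists were merged, the clusters held 893 regions and the rest of the chromosome 3169. Regions called in DHT and CSS but not FBS were 40 of 196 in cluster A (20.4%, 15.0 to 26.7), against 6.75% of the rest of the chromosome and 5.97% of all merged regions of the lists. The difference between cluster A and the rest was 13.7 points (8.52 to 19.9). Those 40 regions were high in both lists, with a median percentile of 75.2 in DHT and 86.1 in CSS, against 53.0 in DHT and 66.0 in CSS for regions of the same class in the rest of the chromosome. This was not particular to them. The 21 regions of cluster A called in all 3 lists stood at 74.5 in DHT and 80.8 in CSS. Regions of the same class as the 40 stood at 79.1 in DHT and 82.1 in CSS in cluster D, 56.3 and 83.3 in cluster B, and 54.8 and 67.9 in cluster E. Without cluster A the remaining clusters held regions called in DHT and CSS but not FBS at the rate of the rest of the chromosome, with a difference of -0.153 points (-2.02 to 2.09).

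The strongest of the 40 by mean percentile, picked after their values were seen, lay at chr19:20585290-20587037. It had a fold enrichment of 7.20 in DHT (percentile 98.0) and 6.82 in CSS (percentile 97.9), and was one of the wide peaks of the cluster. The next ones lay at chr19:20248266-20248981, with fold enrichments of 8.99 in DHT and 13.0 in CSS, and at chr19:23317029-23317568, with 9.45 in DHT and 10.1 in CSS. The highest CSS peak of cluster A, at chr19:21733964-21734543, did have an FBS partner: its fold enrichment was 9.05 in DHT (percentile 94.0), 4.80 in FBS (percentile 45.4) and 13.9 in CSS (percentile 99.2). The highest FBS peak of the cluster, at chr19:22018491-22018958, ran the other way, with a fold enrichment of 6.08 in DHT (percentile 55.4), 8.08 in FBS (percentile 98.5) and 5.58 in CSS (percentile 49.0). The highest cluster peak called in DHT alone also lay in cluster A, at chr19:23740644-23740979, with a fold enrichment of 9.40 and a −log10 q of 11.4 in DHT (percentile 92.5). The first 2 of these 3 peaks combined a place near the top of one list with a middle place in another.

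**Figure D3:**
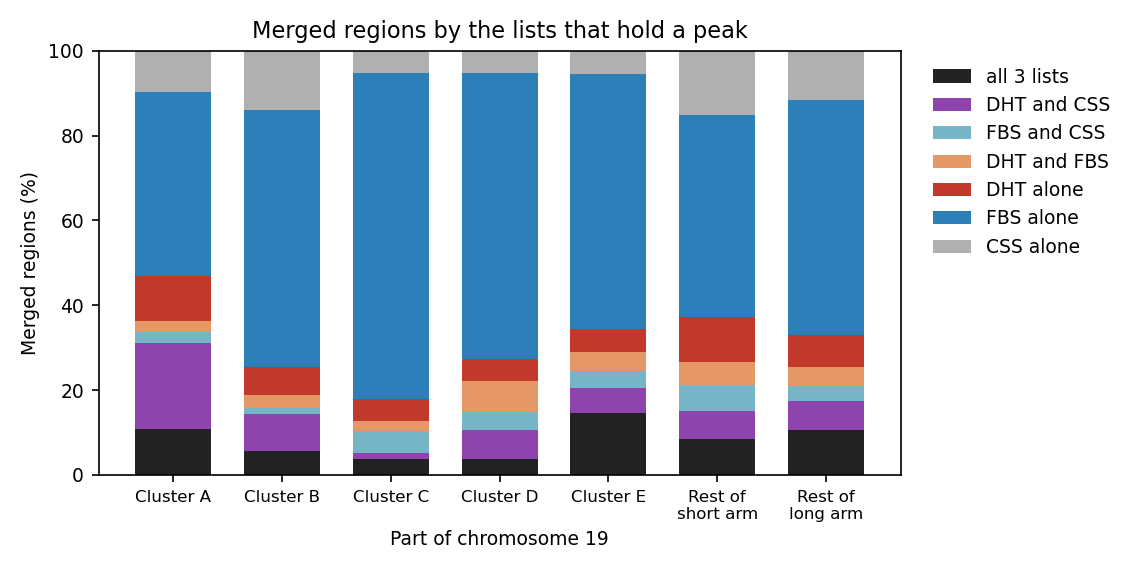
Share of merged regions (vertical axis, percent) by the lists that hold a peak, for clusters A to E and for the rest of the short and long arm of chromosome 19. Regions called in DHT and CSS but not FBS take 20.4% of cluster A and between 1.28% and 8.73% of the other clusters, while FBS alone takes 76.9% of cluster C.

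Cluster E, at the end of the long arm, had the highest share of merged regions called in all 3 lists among the clusters. Of its 200 merged regions, 29 were called in all 3 lists (14.5%, 9.93 to 20.2), against 9.69% of the rest of the chromosome and 7.67% of all merged regions, a difference from the rest of the chromosome of 4.81 points (0.466 to 10.4). Partners in both other lists were found for 32 of 65 DHT peaks (49.2%, with 34.8% over the whole list) and 31 of 64 CSS peaks (48.4%, with 31.2% over the whole list), against 30.8% of DHT and 26.4% of CSS peaks in the rest of the chromosome. For FBS peaks, partners in both other lists were found for 28 of 170 in cluster E (16.5%) and 23 of 118 in cluster A (19.5%), with 9.59% over the whole list. Cluster A also stood higher for DHT peaks with a CSS partner (72.9%, with 69.2% in cluster E) and CSS peaks with a DHT partner (71.8%, with 70.3% in cluster E), by less than the counting error of either share. The strong FBS peaks of cluster E numbered 26 of 170 (15.3%, 10.24 to 21.6), 9.39 points (4.63 to 15.6) above the rest of the chromosome. For the DHT and CSS lists the strong peaks of cluster E, 7 of 65 (10.8%) and 4 of 64 (6.25%), gave differences from the rest of the chromosome whose intervals included 0 (3.27 points, -2.48 to 13.2, and -3.25 points, -7.47 to 5.64). The 29 shared regions were high in FBS (median percentile 95.6) and stood at 66.1 in DHT and 62.0 in CSS. Regions called in all 3 lists in the rest of the chromosome stood at 80.8 in FBS, 52.3 in DHT and 55.6 in CSS. Those of cluster B stood at 94.1 in FBS, so the high FBS place was not particular to cluster E.

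The region of cluster E that ranked highest over the lists together was a narrow one at chr19:57454127-57454501. Its fold enrichment was 11.7 in DHT, 9.06 in FBS and 15.3 in CSS, at percentiles 98.2, 98.9 and 99.0 of those lists, and the summits of the 3 peaks lay at 57454316 in DHT, 57454315 in FBS and 57454326 in CSS. This was the one named region that was near the top of all 3 lists. The highest FBS peak of the cluster, at chr19:57106403-57107065, had fold enrichments of 7.90 in DHT (percentile 84.1), 9.10 in FBS (percentile 99.4) and 7.62 in CSS (percentile 80.0). At chr19:57994046-57994749, a peak among the 3 highest DHT peaks of all clusters, the fold enrichment was 10.4 in DHT (percentile 99.1) and 9.86 in CSS (percentile 97.6), with no FBS peak.

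Clusters C and D were the ones most made up of peaks called in FBS alone. These were 60 of 78 merged regions in cluster C (76.9%, 66.0 to 85.7) and 128 of 190 in cluster D (67.4%, 60.2 to 74.0), 24.6 points (14.0 to 32.7) and 15.0 points (7.88 to 21.6) above the 52.3% of the rest of the chromosome. Over all merged regions of the lists FBS alone made up 68.4%, so the shares of clusters C and D lay near that level and the rest of chromosome 19 lay under it. Cluster C, the shortest, held 11 DHT and 12 CSS peaks, too few for a firm statement on their strength: of the DHT peaks 0 of 11 were strong, which allows a share of up to 27.3% taken as 3 counts of 11 and up to 28.5% by the Clopper-Pearson interval. Its FBS peaks stood at a median percentile of 54.1 (37.7 to 70.5), near the 50.4 of the rest of the chromosome. The strong ones among them, at or above a −log10 q of 10, were 11 of 70 (15.7%, 8.11 to 26.4, with 4.92% over the whole list). That share lay 9.81 points (3.02 to 20.1) above the rest of the chromosome. The strong FBS peaks of cluster C included the highest FBS peak of all clusters, at chr19:44915329-44915844, with a fold enrichment of 7.79 and a −log10 q of 23.3 in FBS (percentile 99.7). It had a CSS peak of fold enrichment 4.39 (percentile 12.8) and no DHT peak. The highest cluster peak called in FBS alone, at chr19:44529393-44529848, was also in cluster C, with a fold enrichment of 9.49 and a −log10 q of 16.3. Of the 3 regions of cluster C called in all lists, the highest lay at its upper end, at chr19:44992344-44993377, with fold enrichments of 6.35 in DHT (percentile 62.6), 4.16 in FBS (percentile 35.3) and 10.4 in CSS (percentile 97.3).

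Cluster D held the 2 strongest DHT peaks of all clusters, and neither had an FBS partner. At chr19:52456030-52456509 the fold enrichment was 13.0 in DHT and 15.4 in CSS, with −log10 q of 22.3 and 31.0, which put it at percentile 99.6 of both lists. At chr19:53096979-53097471 it was 12.7 in DHT (percentile 99.6) and 11.0 in CSS (percentile 96.9). The highest FBS peak of cluster D, at chr19:52531220-52531991, had a fold enrichment of 5.57 in DHT (percentile 41.7) and 7.34 in FBS (percentile 99.2), and no CSS peak. Of the regions of cluster D called in all 3 lists, the highest lay at chr19:53773156-53773870, with fold enrichments of 8.83 in DHT, 5.84 in FBS and 11.5 in CSS. Regions called in all 3 lists were 7 of 190 (3.68%), 6.00 points under the rest of the chromosome (difference -6.00, -8.18 to -2.15). The 100 kb window chr19:52500001-52600000, with 3 DHT, 15 FBS and 2 CSS peaks, had the most FBS peaks of any cluster, tied with chr19:58100001-58200000 in cluster E (5 DHT, 15 FBS and 4 CSS peaks) and followed by its neighbour chr19:52400001-52500000 (2 DHT, 14 FBS and 3 CSS peaks).

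Cluster B stood out in DHT and CSS by peaks of low fold enrichment and yet high −log10 q, most of them in a pair of short blocks. Peaks with a fold enrichment under 4 whose −log10 q reached 5 were 9 of 56 DHT peaks (16.1%), 6 of 163 FBS peaks (3.68%) and 30 of 69 CSS peaks (43.5%) of cluster B. Over the whole lists they were 0.381% in DHT, 2.38% in FBS and 0.659% in CSS. The FBS share of cluster B lay under that of the rest of the chromosome, which was 10.3% (difference -6.61 points, -8.99 to -2.33). All 9 DHT peaks and 30 of the 31 CSS peaks of this kind in the clusters lay in cluster B, and the rest of the chromosome held 3 among 987 DHT peaks and 2 among 1116 CSS peaks. Stretches with at least 5 CSS peaks of fold enrichment under 4 and neighbouring summits within 20 kb, a definition made after the values were seen, picked out 2 blocks. The first, chr19:36759650-36800727 (41.1 kb), held 5 DHT peaks, 1 FBS peak and 17 CSS peaks. The second, chr19:37759634-37793683 (34.05 kb), held 11 DHT peaks, 2 FBS peaks and 15 CSS peaks. All 51 of these peaks had a fold enrichment under 4, and in the second block 10 of the 11 DHT peaks overlapped a CSS peak.

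The second block had a regular rhythm. From 37767590 to 37792889, 11 CSS summits followed each other at steps of 2427 to 2626 bp, with a median of 2549 bp (mean 2530 ± 65.2, SD over the steps). Their fold enrichments lay between 2.23 and 3.34 and their −log10 q between 6.52 and 16.0. All 12 CSS gaps of at least 2000 bp in that block were within 200 bp of a multiple of 2549 bp, as were 8 of 10 DHT gaps, while in the first block 5 of 8 CSS gaps and 2 of 3 DHT gaps were. The step was read from these peaks, so the CSS count in the second block describes it and tests nothing. The DHT peaks are of other libraries, but 10 of the 11 in the second block overlap a CSS peak. Their gaps therefore largely follow the CSS gaps, and the DHT count is no separate test of the step. Of the runs of at least 5 peaks with near-equal steps of at most 10 kb in the lists (5 in DHT, 21 in FBS, 6 in CSS), this was the one that lay in a zinc finger cluster. Runs elsewhere on chromosome 19 lay at summits 48410927 to 48458904, with 10 DHT peaks at a median step of 5362 bp, and 50610377 to 50642542, with 7 DHT peaks at 5364 bp and 7 CSS peaks at 5359 bp. What sequence lies under the blocks was not tested, since no sequence or repeat annotation of the build was used.

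**Figure D4:**
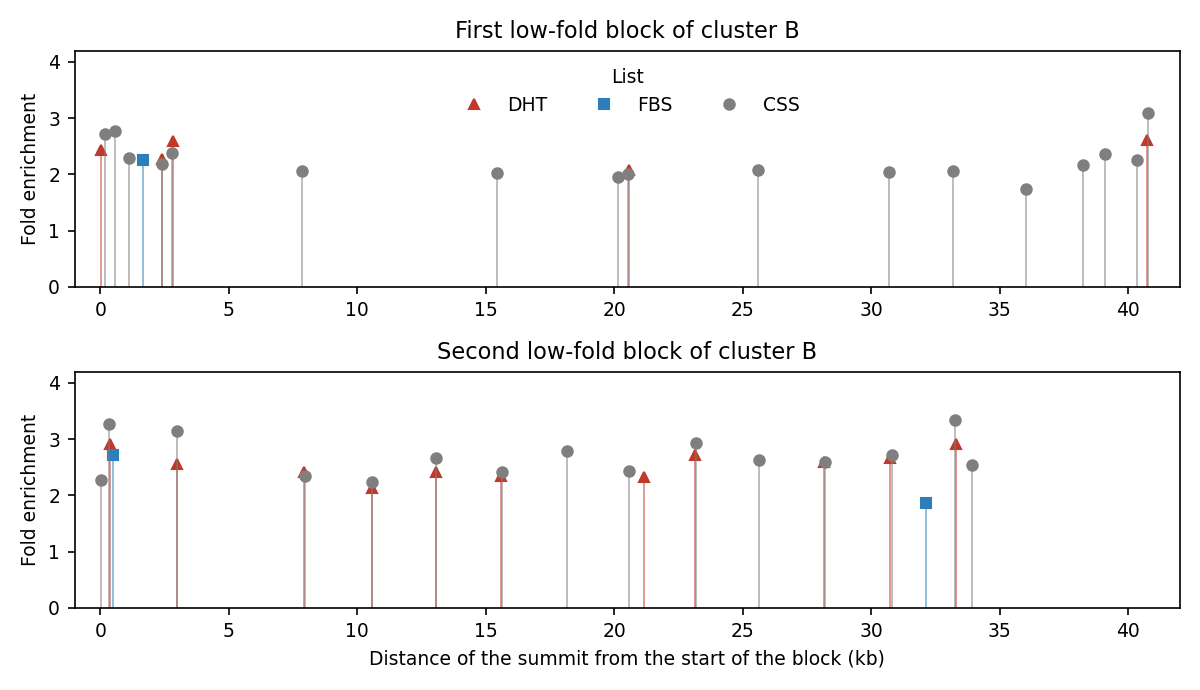
Fold enrichment (vertical axis) of each peak against the distance of its summit from the start of the block (kb), in the first and second low-fold block of cluster B, for DHT (triangles), FBS (squares) and CSS (circles). In the second block the CSS summits follow each other at a median step of 2549 bp and most have a DHT summit beside them; no peak reaches a fold enrichment of 4.

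The blocks changed how cluster B compared with the rest. With them, the FBS over CSS odds ratio of cluster B was 1.15 (0.851 to 1.55) and the FBS over DHT odds ratio 1.25 (0.907 to 1.74). Without them, cluster B kept 40 DHT, 160 FBS and 37 CSS peaks, and the odds ratios were 2.10 (1.45 to 3.11) and 1.71 (1.195 to 2.51). The blocks were defined by their many CSS peaks, so leaving them out raises these ratios by construction, and the second pair of values is a description only. The median CSS percentile of cluster B was 66.0 with the blocks and 35.1 without them, and the median CSS fold enrichment 3.98 with them and 5.15 without them. The highest-ranked cluster peak called in CSS alone, at chr19:37777642-37777924, was a block peak, with a −log10 q of 13.8 and a fold enrichment of 2.79. Outside the blocks, the highest shared region of cluster B lay at chr19:37568823-37569561, with fold enrichments of 8.16 in DHT (percentile 85.1), 8.83 in FBS (percentile 99.3) and 7.88 in CSS (percentile 81.8). Cluster B also held the 2 FBS peaks that came next after the highest one, that of cluster C. At chr19:36909304-36909881 the fold enrichment was 7.39 in DHT (percentile 82.3), 7.29 in FBS (percentile 99.5) and 5.92 in CSS (percentile 57.5). At chr19:38210065-38210656 it was 5.50 in DHT (percentile 40.7) and 8.19 in FBS (percentile 99.4), with no CSS peak. Both thus ranked higher in FBS than in either hormone-depleted list.

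**Figure D5:**
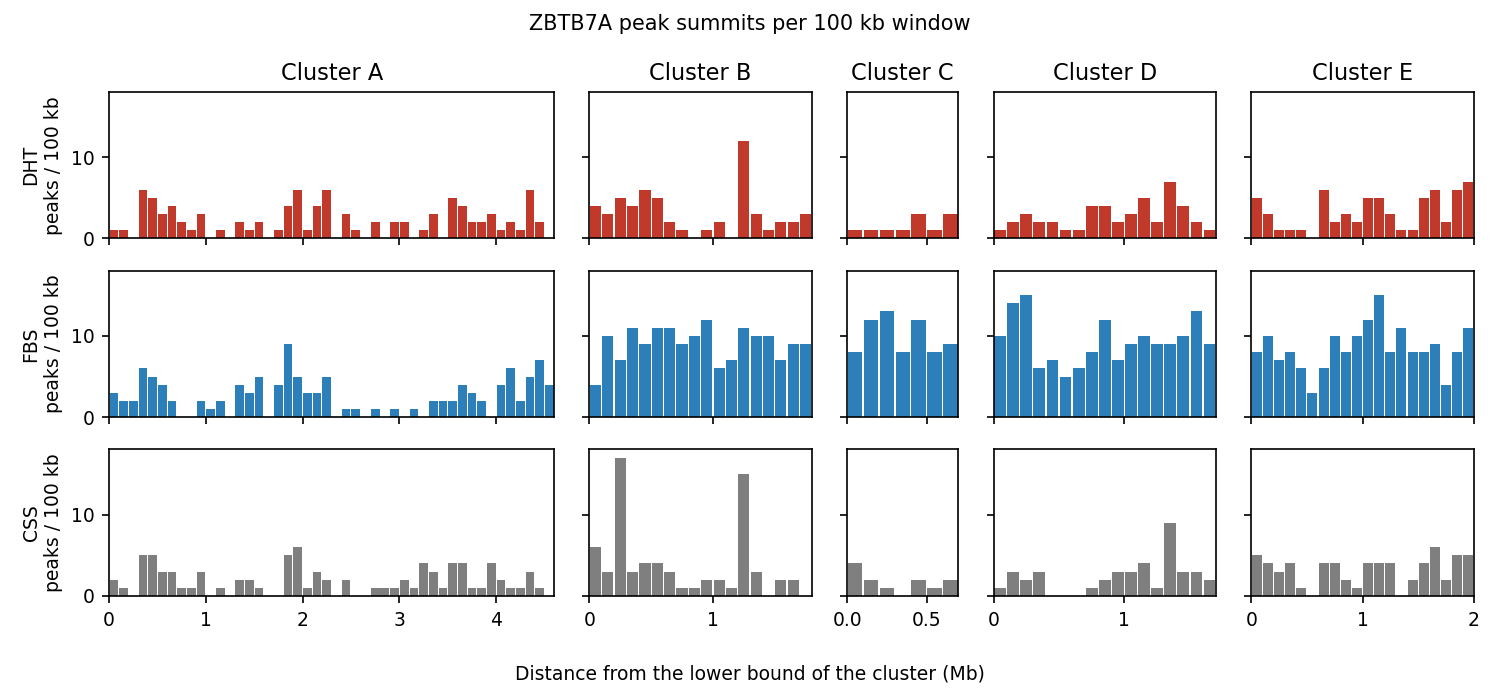
Peak summits per 100 kb window (vertical axis) against the distance from the lower bound of each cluster (Mb), for DHT, FBS and CSS. The 2 tallest CSS windows, with 17 and 15 peaks, are those of the low-fold blocks in cluster B; FBS has a peak in every window of clusters B to E and in 36 of 46 windows of cluster A.

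Inside cluster A the median spacing of FBS peaks was wider than in the rest of the chromosome, and that of DHT and CSS peaks was not clearly so. Per Mb, CSS peaks were fewer there as well, at 0.747 times the density of the rest. DHT and CSS summits of cluster A lay a median of 24.5 kb and 26.65 kb apart. Of the 46 windows of 100 kb in cluster A, 10 had no DHT peak, 10 no FBS peak and 9 no CSS peak. The longest stretch between FBS summits was 270.1 kb there and 336.5 kb in the rest of the chromosome. In the 62 windows of clusters B to E there was none without an FBS peak, and FBS summits followed each other at a median of 7.98 kb in cluster B, 7.81 kb in cluster C, 8.68 kb in cluster D and 9.03 kb in cluster E, against 21.5 kb in cluster A and 12.7 kb in the rest of the chromosome. DHT and CSS summits of all clusters together lay a median of 23.5 kb and 24.1 kb apart, against 27.7 kb and 25.2 kb in the rest. The window with the most CSS peaks, chr19:36700001-36800000, took in most of the first block of cluster B and had 5 DHT, 7 FBS and 17 CSS peaks. The window with the most DHT peaks, chr19:37700001-37800000, took in the second block and had 12 DHT, 11 FBS and 15 CSS peaks. Next in both lists came chr19:53600001-53700000 in cluster D, with 7 DHT, 9 FBS and 9 CSS peaks, tied for DHT with chr19:58900001-59000000 in cluster E, which had 7 DHT, 11 FBS and 5 CSS peaks.

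Fold enrichment of FBS peaks set the clusters apart from the rest of the chromosome more than q did. The median FBS peak stood at fold enrichment 4.36 in the clusters (4.28 to 4.39) and 3.84 in the rest (3.79 to 3.89), which are percentiles 41.4 and 18.8 of that list by fold. By −log10 q the same medians were at percentiles 45.4 and 50.4. FBS peaks of the low-fold kind described for cluster B were 17 of 680 in the clusters (2.50%) and 237 of 2302 in the rest (10.3%), against 2.38% of the whole list. By this measure the clusters were near the whole list and the rest of chromosome 19 stood away from it. In DHT and CSS fold and q placed the clusters on the same side. For DHT the median percentile was 53.0 in the clusters and 41.0 in the rest by fold, and 55.4 and 40.9 by −log10 q. For CSS it was 52.4 in the clusters and 42.2 in the rest by fold, and 62.1 and 41.7 by −log10 q. Within cluster B, with its low-fold blocks counted, fold and q fell on opposite sides of the rest in CSS. Its median percentile was 8.89 by fold and 66.0 by −log10 q in CSS. In DHT it was 24.0 by fold and 45.5 by −log10 q (31.3 to 51.2), an interval that includes the 40.9 of the rest. Without the blocks, which were picked by low fold, the median percentile of cluster B by −log10 q was 37.1 in DHT and 35.1 in CSS, under the rest in both. What sets the fold enrichment of FBS peaks on this chromosome was not tested.

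Wide peaks, of at least 1000 bp, were few. There were 4 of 274 DHT peaks (1.46%, with 1.36% over the whole list), 11 of 680 FBS peaks (1.62%, with 0.979% over the whole list) and 11 of 270 CSS peaks (4.07%, with 1.87% over the whole list) in the clusters. The difference from the rest of the chromosome was 0.852 points in DHT (-0.288 to 3.11), 1.27 in FBS (0.482 to 2.54) and 2.91 in CSS (0.946 to 6.02). Cluster A held 3 of the DHT and 6 of the CSS wide peaks and 0 of 118 FBS peaks, which allows a share of up to 2.54% taken as 3 counts of 118 and up to 3.08% by the Clopper-Pearson interval. In the region of cluster A with the highest mean percentile among those called in all 3 lists, at chr19:20260006-20261480, the DHT peak was 1475 bp wide, the FBS peak 254 bp and the CSS peak 1405 bp. Its percentile was 95.3 in DHT, 51.6 in FBS and 98.3 in CSS.

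Summits in a shared region lie close largely by definition, since its peaks overlap and had median widths of 251.5 to 275 bp in the clusters. In the clusters the summits of DHT and CSS peaks in a shared region were a median of 53 bp apart and 109 of 159 were within 100 bp (68.6%), against 78 bp and 57.6% in the rest of the chromosome. The share was higher than in the rest in cluster A (70.5%), cluster B with its blocks (81.8%) and cluster D (75.0%). It was lower in cluster C (2 of 4 regions) and cluster E (53.7%). FBS summits lay a median of 103 bp from DHT summits and 115 bp from CSS summits in the clusters, against 111 bp and 130 bp in the rest.

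The bounds were set by position, and the peaks beside them show how sharply they fall. The closest pair straddled the lower bound of cluster B, where a DHT summit with fold enrichment 6.15 lay 0.224 kb inside and an FBS summit with 2.76 lay 0.485 kb outside. At the other bounds the nearest summit lay 2.88 to 42.1 kb inside, with fold enrichments of 3.62 to 7.85, and 1.84 to 94.98 kb outside, with fold enrichments of 4.01 to 8.56.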

How the data were processed

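The data were 3 peak lists in narrowPeak format, 1 each for DHT, FBS and CSS; how libraries of 1 condition were combined is not stated in the labels. The submitters' processing notes name MACS2 2.0.10.20131216, BWA 0.7.2-r351 and SAMtools 0.1.18, with the build hg19 (GRCh37). The authors deposited the fold enrichment of each peak, a ratio over background. The −log10 q of each peak was deposited by the authors as well, and the deposited score was the whole part of 10 times it in 100% of peaks of each list. The lowest −log10 q was 1.31 in DHT, 1.31 in FBS and 1.33 in CSS. The control library and the filters on reads are not stated in the labels. Both values depend on depth. They were used within a list, except in the alternatives that set the same fold or q cutoff on every list. Odds ratios between lists at such a cutoff therefore depend on depth as well.

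Peaks were assigned by summit. The rest of chromosome 19 ran from the first to the last summit of any list, less the clusters and the longest stretch without a summit (24600045 to 27732074), which also divided the arms. Shares have Clopper-Pearson, differences Newcombe, densities exact Poisson, odds ratios exact conditional and medians order-statistic intervals. Neighbouring peaks are not independent, so these intervals are too narrow as statements on the cells. Peaks of tied q share a percentile. The members, the lists of comparisons and the bounds were chosen with earlier results of these data known. By rule, the text names the 3 highest cluster peaks by −log10 q in each list, the highest region of each cluster called in all 3 lists, the highest peak called in 1 list alone, the peaks beside the bounds and the fullest windows; the highest peak of a cluster and other named peaks were picked after their values were seen. Nearest genes and motifs were planned for an hg19 sequence and annotation and were not analysed here. Intervals came from scipy 1.17.1, tables from pandas 2.3.3 and numpy 2.4.6 under Python 3.11.15, and figures from matplotlib 3.10.9. The code was tested on simulated data, and its overlap counts equalled those of bedtools 2.31.1 in 6 of 6 pairs of lists.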

Additional observations from a re-analysis of the deposited data

How the results depend on the processing

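Of 291 values under another setting, 212 stayed within the interval of the reported value, 75 moved out of it and 4 changed the direction of a value whose interval had excluded no difference. The last are the FBS over CSS odds ratio of all clusters, which was 0.819 at a −log10 q of at least 10 and 0.876 at 5 (1.22 reported), the DHT and CSS without FBS regions, -0.153 points without cluster A, and the share of strong FBS peaks, -0.0869 points at a fold enrichment of at least 10.

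At a −log10 q of at least 10, the share of chromosome 19 peaks in the clusters was 32.7% in DHT, 31.3% in FBS and 35.8% in CSS, and the ratios of peaks per Mb were 2.03, 1.90 and 2.33. The odds ratios were 0.165 for FBS over DHT, 0.147 for FBS over CSS and 0.896 for DHT over CSS in cluster A, 1.90 for FBS over DHT and 0.849 for DHT over CSS in the long-arm clusters, and 0.874 for DHT over CSS in all clusters. At a −log10 q of at least 5, the share was 27.8% in DHT and 26.7% in CSS, with ratios per Mb of 1.61 and 1.52. The odds ratios were 0.202 for FBS over DHT and 0.270 for FBS over CSS in cluster A, 1.20 for FBS over CSS in the 4 long-arm clusters and 0.829 for FBS over DHT in all clusters. The differences in partner shares were -13.5 points for DHT with FBS, -8.24 for FBS with DHT, -7.49 for FBS with CSS and -11.3 for CSS with FBS, those in regions 6.44 for DHT and CSS without FBS and 0.466 for FBS alone, and those in strong peaks 16.2 in DHT and 20.6 in CSS.

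At a fold enrichment of at least 5, the FBS share was 37.5% and its ratio per Mb 2.51. The FBS over DHT and FBS over CSS odds ratios were 0.853 and 0.986 in cluster A, 2.78 and 3.35 in the long-arm clusters and 1.99 and 2.36 in all clusters. The difference was 0.0623 points for DHT and CSS without FBS, 17.9 for FBS alone, 3.89 for all 3 lists and -0.452 for FBS peaks with a CSS partner. At a fold enrichment of at least 10 strong CSS peaks differed by 4.31 points. Ranking by fold enrichment gave median percentiles of 41.4 in FBS and 52.4 in CSS.

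With equal numbers of top peaks the FBS share was 24.9%, the FBS ratio per Mb 1.38, the median FBS spacing 26.8 kb, the FBS over CSS odds ratio 0.485 in cluster A and 1.81 in the long-arm clusters, and the partner differences of FBS peaks -9.18 points with DHT and -10.5 with CSS; peaks within 500 bp gave -7.20 and -9.74. Bounds widened by 100 kb gave shares of 24.2% in DHT, 25.1% in FBS and 21.9% in CSS, and narrowed bounds 20.3% in FBS. Counted with the long arm only, the shares were 31.9% in DHT, 32.0% in FBS and 29.4% in CSS, and the FBS ratio per Mb 1.10. A width of at least 500 bp gave differences of 3.98 points in DHT, 4.63 in FBS and 8.83 in CSS.

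Without cluster A the shares were 15.3% in DHT, 19.6% in FBS and 14.2% in CSS, the ratio per Mb 1.78 in FBS and 1.21 in CSS, and the odds ratio 1.35 for FBS over DHT and 1.47 for FBS over CSS. The median DHT percentile was then 46.7, FBS-alone regions differed by 11.8 points, DHT peaks with an FBS partner by 1.62, and strong peaks by 1.49 in DHT and 5.10 in CSS. The cause of these shifts was not tested.

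Leaving out the blocks of cluster B and restricting the rest to the short arm were chosen after seeing the data. Merged regions were not rebuilt for partners by mutual overlap or by summit distance, and library-by-library alternatives were not run, as there is 1 list per condition. No paired analysis was possible because the lists carry no replicates. Counts of 11 and 12 peaks limit what cluster C can show in DHT and CSS, and unknown depth limits every comparison between lists.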
